A study of Homo sapiens with 30 samples.

Results

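The question here was which genes answered restored UTX differently in cells that carried mutant FGFR3 than in cells that carried wild type FGFR3. The cells were UMUC1, an established human bladder cancer line in which, per the series record, UTX is inactivated by mutation. Of the 30 RNA-seq libraries of the series, the 12 that combine a UTX vector with an FGFR3 vector were used, in 4 groups of 3. S249C_UTX cells carried FGFR3 with the S249C change in a pBabe-puro gateway vector and UTX in a pCDH-blasticidin vector, and S249C_EV cells carried the same mutant FGFR3 with an empty pCDH-blasticidin vector (EV). WTFGFR3_UTX cells carried wild type FGFR3 in pBabe-puro with UTX, and WTFGFR3_EV cells carried wild type FGFR3 with the empty vector. All 4 groups were kept in MEM with 10% fetal bovine serum and harvested 3 days after plating. Every group therefore carried an introduced FGFR3 gene, and no group of these 12 libraries lacked one. The labels describe stable expression without naming clones, and they do not say whether the replicates were separate cultures. The p-values therefore cover the spread between libraries of a group, which may be technical. They do not cover differences that arose between the cell populations of the 4 groups apart from the vectors. Such differences cannot be told apart from effects of UTX or FGFR3 here. The words changed, raised and lowered below name differences between groups of libraries.

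UTX, encoded by KDM6A, removes methyl groups from lysine 27 of histone H3 and belongs to the KMT2C/KMT2D complexes that act at enhancers, and it is among the genes most often inactivated in bladder cancer. FGFR3 is a receptor tyrosine kinase that signals through the MAPK pathway. The S249C change places an unpaired cysteine in the extracellular region, which lets receptors form disulphide-linked dimers and signal without ligand, and it is the commonest FGFR3 change in bladder cancer. Urothelium is layered: basal cells make keratins such as KRT5 and KRT17, and the luminal cells above them make uroplakins, whose plaques form the barrier to urine.

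Each gene's UTX effect was taken as the log2 fold change of UTX over EV, once beside S249C (S249C_UTX over S249C_EV) and once beside wild type FGFR3 (WTFGFR3_UTX over WTFGFR3_EV). The interaction is the first effect minus the second, so a value above 0 means that UTX raised the gene more, or lowered it less, beside S249C. Levels are given as CPM, read counts scaled to one common library size with TMM factors. A gene passed the test when its Benjamini-Hochberg adjusted p from edgeR's quasi-likelihood test, over all 19399 genes tested, was under 0.05. Library totals ran between 21672408 and 28290664 counts, and the biological coefficient of variation between replicates was 6.05%.

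The genes carried by the vectors were read first. KDM6A had 941, 946 and 700 CPM in S249C_UTX libraries, against 10.1, 12.7 and 12.1 CPM in S249C_EV libraries. It had 863, 869 and 739 CPM in WTFGFR3_UTX libraries, against 15.0, 17.0 and 15.5 CPM in WTFGFR3_EV libraries. Every UTX library was far above every EV library, and replicate 3 was the lowest in both UTX groups. The KDM6A interaction of 0.51 ± 0.17 (log2, SE) did not pass (edgeR adjusted p = 0.278).

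FGFR3 had 2624, 2601 and 2538 CPM in S249C_UTX libraries and 2198, 2363 and 2406 CPM in S249C_EV libraries. It had 1288, 1246 and 1194 CPM in WTFGFR3_UTX libraries and 1227, 1377 and 1298 CPM in WTFGFR3_EV libraries. The S249C groups thus held more FGFR3 RNA than the wild type groups, by 1.06 (log2) with UTX (edgeR adjusted p = 6.39e-08) and by 0.84 with EV (edgeR adjusted p = 2.37e-07). The form of FGFR3 and its RNA level cannot be told apart in any comparison between S249C and wild type groups below. UTX raised FGFR3 RNA by 0.16 ± 0.05 (log2) beside S249C, past the threshold (edgeR adjusted p = 0.0403). Beside wild type FGFR3 the effect was -0.07 ± 0.05 (edgeR adjusted p = 0.461). The UTX effects beside S249C below therefore include this rise in FGFR3 RNA, and its part in them was not tested. The FGFR3 interaction of 0.22 ± 0.07 did not pass (edgeR adjusted p = 0.257).

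**Figure D1:**
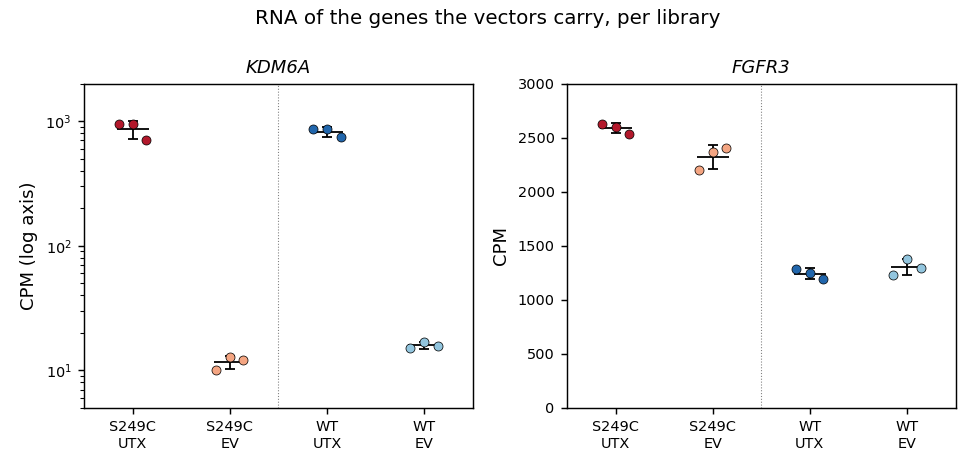
KDM6A on a log axis (left) and FGFR3 on a linear axis (right) in CPM, with 1 point per library and a bar with whiskers for the mean ± SD of 3 libraries. KDM6A lies between 700 and 946 CPM in the UTX libraries and between 10.1 and 17.0 CPM in the EV libraries, and FGFR3 lies between 2198 and 2624 CPM in the S249C libraries and between 1194 and 1377 CPM in the wild type libraries.

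In most genes the UTX effect did not differ detectably between the forms of FGFR3. UTX changed 4171 genes beside S249C (21.5% of those tested), raising 12.9% and lowering 8.62%, and 2924 beside wild type FGFR3 (15.1%), raising 9.06% and lowering 6.01%. Of the 2000 genes called in both, 1981 moved the same way. Over the 11412 genes with a mean of at least 5 CPM the log2 effects had a Pearson r of 0.763, and over all 19399 genes tested 0.255. Both are descriptions across genes, which are not independent replicates. The 2 effects share no library.

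The interaction passed in 133 genes, 0.686% of those tested. It was above 0 in 111 genes (0.572%) and below 0 in 22 (0.113%), so 83.5% of the calls lay above 0, while 50.2% of all genes tested had a value above 0. Before adjustment 2102 genes had a p under 0.05. The last gene inside the threshold was PCDH7, at 0.46 ± 0.10 with an adjusted p of 0.0497, and the first outside was FKBP5, at 0.66 ± 0.14 with 0.0513. The count was sensitive to single libraries: without WTFGFR3_EV replicate 3 it was 58, and without S249C_UTX replicate 3 it was 248, and leaving out any library other than S249C_EV replicate 2 moved it by more than 1.5 times. All 133 genes kept their sign in the 12 fits that left out 1 library, and 45 of them, 41 above 0 and 4 below, passed in each of these fits.

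**Figure D2:**
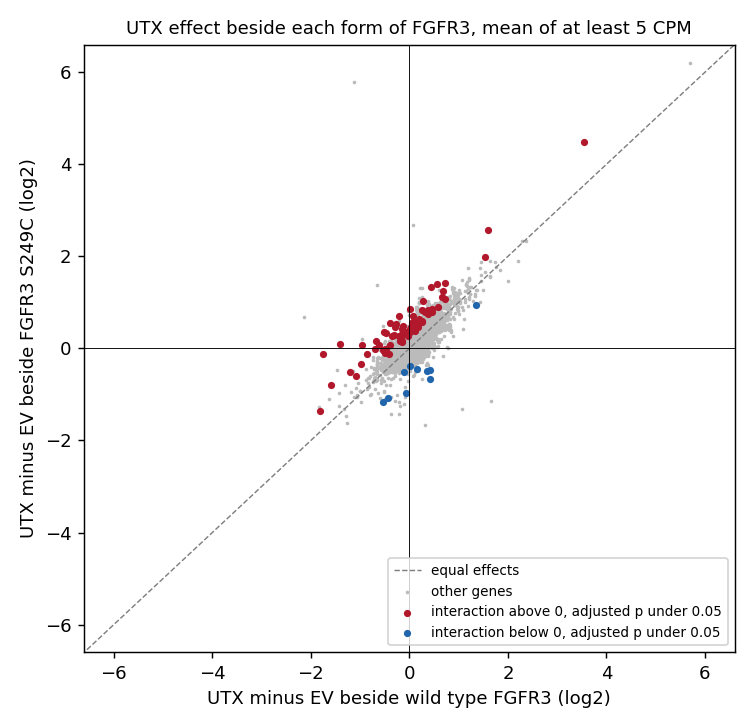
Each point is 1 of 11412 genes with a mean of at least 5 CPM, with its UTX effect beside wild type FGFR3 (log2, horizontal axis) and beside S249C (log2, vertical axis). Red marks the 75 genes of this plot with an interaction above 0 past the threshold and blue the 10 below 0; they sit off the dashed line of equal effects.

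The 111 genes above 0 reached that value in several ways. UTX raised 74 of them and lowered 8 beside S249C (12.9% and 8.62% of all genes tested), and it raised 27 and lowered 51 beside wild type FGFR3 (9.06% and 6.01%). Because the interaction is built from these effects, nothing is read from these shares. In 33 genes the effect passed beside S249C but not beside wild type FGFR3, and in 29 the reverse held. In 27 both effects passed with the same sign and the larger size beside S249C, in 8 both passed with the smaller size beside S249C, and in 14 both passed with opposite signs. Of the 22 genes below 0, 11 passed beside S249C but not beside wild type FGFR3, 2 the reverse, 3 had the larger and 1 the smaller effect of the same sign beside S249C, and 5 had opposite signs. All 19 genes whose effects passed with opposite signs were among the 133.

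The same interaction can be read as the effect of S249C in each background, from the same libraries. S249C against wild type FGFR3 changed 591 genes in UTX cells (3.05%; 1.71% higher and 1.34% lower) and 2088 in EV cells (10.8%; 4.31% higher and 6.45% lower). The count in UTX cells was 291 to 353 without a WTFGFR3_UTX library and 379 without S249C_UTX replicate 2, and that in EV cells 1255 and 1124 without WTFGFR3_EV replicates 2 and 3 and 1374 without S249C_EV replicate 1. Of the 111 genes above 0, 30 were higher and 6 lower in S249C_UTX than in WTFGFR3_UTX, while 4 were higher and 84 lower in S249C_EV than in WTFGFR3_EV. Of the 22 genes below 0, 0 were higher and 9 lower in the UTX comparison, and 18 were higher and 0 lower in the EV comparison. More of the 133 genes passed in the EV comparison than in the UTX comparison, as did more of all genes tested (10.8% against 3.05%). The 133 genes were chosen with these same libraries, so nothing is read from this. In 57 of the 111 genes the 3 S249C_EV libraries were the lowest of all 12, and in 43 the 3 WTFGFR3_EV libraries were the highest. At least one of these held for 91 genes (82.0%), against 9.93% of all genes tested, but either pattern by itself moves the interaction in this direction. The 3 S249C_UTX libraries were the highest in 23 of the 111 genes, and the 3 WTFGFR3_UTX libraries the lowest in 19.

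**Figure D3:**
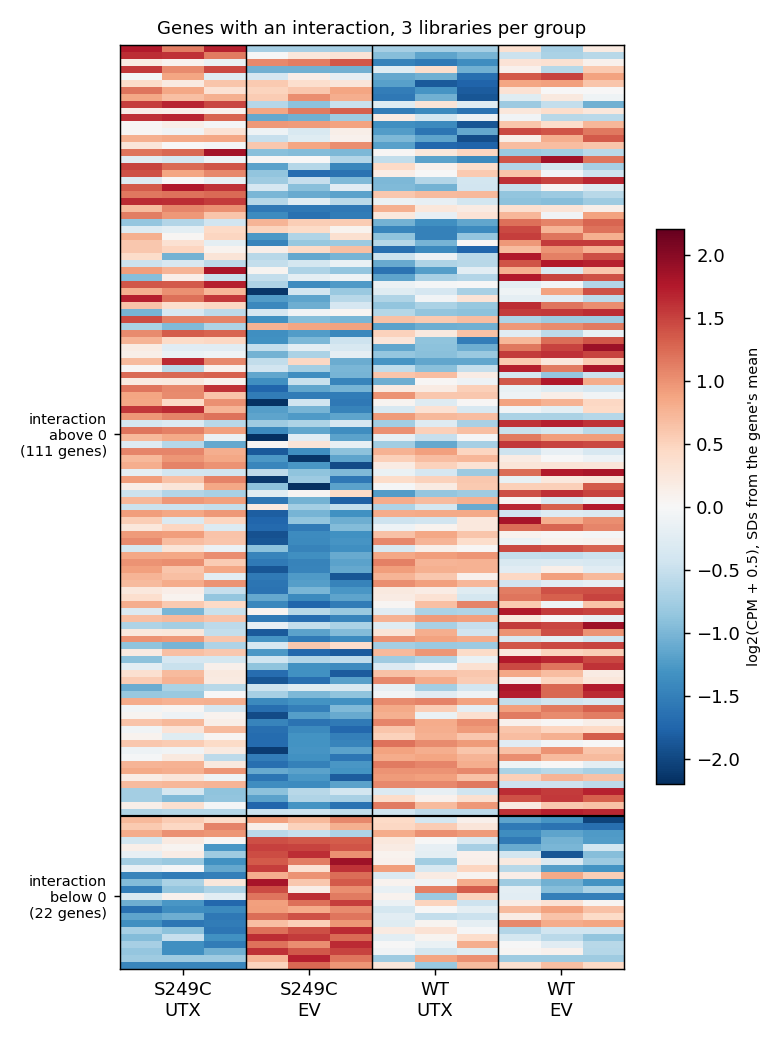
Each line is 1 of the 133 genes with an interaction, 111 above 0 over 22 below 0, and each column 1 library, with colour for log2(CPM + 0.5) in SDs from the gene's own mean. Within each block the genes are ordered by S249C_UTX minus WTFGFR3_UTX, and the S249C_EV columns are low and the WTFGFR3_EV columns high for most of the upper block.

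Among luminal urothelial genes, 7 of 29 tested passed with an interaction above 0 and 0 below (0.572% and 0.113% of all genes tested), 26 of the 29 values lay above 0, and the median was 0.20 against 0.001 over all genes tested. UPK1B and ERBB3 are among the 7. The members of this list and of the lists below were chosen with earlier results of these data known. Their shares of calls are therefore descriptions and no support for a role of any list. UPK1B, a uroplakin of the urothelial plaque, had 684, 672 and 721 CPM in S249C_UTX libraries and 468, 506 and 514 CPM in S249C_EV libraries. It had 601.5, 600.2 and 627.5 CPM in WTFGFR3_UTX libraries and 575, 565 and 559 CPM in WTFGFR3_EV libraries. UTX libraries were above EV libraries beside both forms, but the step was larger beside S249C, where S249C_EV was the lowest of the 4 groups and S249C_UTX the highest. The UTX effect was 0.48 ± 0.05 beside S249C (edgeR adjusted p = 2.56e-06) and 0.11 ± 0.05 beside wild type FGFR3 (edgeR adjusted p = 0.145), and the interaction was 0.37 ± 0.06 (edgeR adjusted p = 0.0151). The other uroplakin genes tested, named after their values were seen, did not pass. They were UPK1A at 0.69, UPK2 at 0.28, UPK3B at 0.195 and UPK3BL1 at 0.184 (edgeR adjusted p = 0.702, 0.391, 0.444 and 0.692). The RefSeq promoter of UPK1B, GRCh38.p14 chr3:119173348-119173647, plus strand, is shown because UPK1B is the uroplakin gene among the 133. Capitals mark the 50 bases from the annotated start on.
UPK1B: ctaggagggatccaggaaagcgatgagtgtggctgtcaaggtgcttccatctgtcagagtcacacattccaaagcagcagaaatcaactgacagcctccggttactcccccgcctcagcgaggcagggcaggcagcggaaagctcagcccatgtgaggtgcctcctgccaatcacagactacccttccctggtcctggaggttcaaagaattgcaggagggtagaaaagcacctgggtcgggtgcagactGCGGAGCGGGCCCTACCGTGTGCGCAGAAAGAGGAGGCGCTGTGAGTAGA

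ERBB3, a receptor of the epidermal growth factor receptor family that binds neuregulins and is abundant in luminal urothelium, followed a like pattern at a lower level. It had 85.3, 80.3 and 79.2 CPM in S249C_UTX libraries and 51.9, 56.4 and 57.4 CPM in S249C_EV libraries. It had 85.5, 81.1 and 76.4 CPM in WTFGFR3_UTX libraries and 70.0, 72.5 and 72.7 CPM in WTFGFR3_EV libraries. The UTX groups overlapped fully, and the S249C_EV libraries lay below the other 9. The UTX effect was 0.56 ± 0.05 beside S249C and 0.18 ± 0.05 beside wild type FGFR3, both past the threshold (edgeR adjusted p = 2.41e-06 and 0.0361), and the interaction was 0.39 ± 0.07 (edgeR adjusted p = 0.0329). The UPK1B call was lost without WTFGFR3_UTX replicate 1 or 2 (edgeR adjusted p = 0.0514 and 0.0523). The ERBB3 call was lost without any WTFGFR3_EV library, WTFGFR3_UTX replicate 2 or 3, S249C_EV replicate 1, or S249C_UTX replicate 1 or 2, with adjusted p between 0.0512 and 0.0860.

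The other luminal genes past the threshold were KRT13, GRHL3, ELF3, CD24 and PPARG. KRT13, a keratin of the suprabasal layers, had 673, 676 and 774 CPM in S249C_UTX and 685.5, 655.5 and 668.2 CPM in S249C_EV libraries. It had 765, 741 and 759 CPM in WTFGFR3_UTX and 1028, 951 and 1012 CPM in WTFGFR3_EV libraries. Here the WTFGFR3_EV libraries stood above all others, and the UTX effect was 0.08 ± 0.05 beside S249C (edgeR adjusted p = 0.339) and -0.40 ± 0.05 beside wild type FGFR3 (edgeR adjusted p = 9.05e-05), with an interaction of 0.48 ± 0.08 (edgeR adjusted p = 0.00887).

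Transcription factors of luminal differentiation were among these genes and were chosen for naming after their values were seen. Other factors of the list did not pass. Among them, also named after their values were seen, were GATA3 at 0.322, FOXA1 at 0.275, KLF5 at 0.259 and GRHL2 at 0.12 (edgeR adjusted p = 0.0978, 0.157, 0.119 and 0.528). TBX2 stood at 0.288 and TBX3 at 0.097 (edgeR adjusted p = 0.589 and 0.712). ELF3, an ETS-family factor, averaged 24.5 ± 0.93 CPM in S249C_UTX, 14.2 ± 1.30 in S249C_EV, 24.6 ± 0.53 in WTFGFR3_UTX and 19.7 ± 1.05 in WTFGFR3_EV libraries (SD, n = 3 each), with an interaction of 0.47 ± 0.10 (SE; edgeR adjusted p = 0.0388). PPARG, the nuclear receptor that drives luminal genes, averaged 58.9 ± 1.87 CPM in S249C_UTX, 53.2 ± 2.78 in S249C_EV, 50.4 ± 0.30 in WTFGFR3_UTX and 56.3 ± 0.67 in WTFGFR3_EV libraries (SD, n = 3 each). UTX thus raised PPARG by 0.15 beside S249C and lowered it by 0.16 beside wild type FGFR3 (log2; edgeR adjusted p = 0.0339 and 0.0323), and the interaction of 0.30 ± 0.07 lay just inside the threshold (edgeR adjusted p = 0.0495). GRHL3, a grainyhead factor of barrier epithelia, stood at 0.96 ± 0.19 (edgeR adjusted p = 0.0355), with group means of 2.86 to 4.61 CPM. Its UTX effect was 0.28 beside S249C and -0.68 beside wild type FGFR3 (log2; edgeR adjusted p = 0.163 and 0.00312). CD24, a surface glycoprotein whose reads can be split with pseudogene copies, stood at 0.32 ± 0.07 (edgeR adjusted p = 0.0388). Calls for ELF3, PPARG and GRHL3 were lost in 10 of the 12 fits that left out 1 library and that for CD24 in 9. The number of luminal genes called was 2 with the replicate number as a block in the fit, and it ranged between 1 (without WTFGFR3_UTX replicate 2) and 7 over these fits, with 5 to 7 only without S249C_EV replicate 2 or 3 or S249C_UTX replicate 3 and at most 3 without any of the other 9 libraries.

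Basal genes also lay mostly above 0, in 17 of 23 values. Of 23 basal genes tested, 3 passed above 0 (KRT17, TRIM29 and MSN) and 1 below (NGFR), against 0.572% and 0.113% of all genes tested, with a median of 0.13. Leaving out 1 library gave 2 to 5 basal calls, with 2 for 6 of the 12 libraries. The replicate block gave 2 above 0 and 0 below. KRT17, a keratin of basal cells whose reads can be shared with pseudogenes, had 1151, 1243 and 1351 CPM in S249C_UTX and 833, 878 and 821 CPM in S249C_EV libraries. It had 1327, 1379 and 1419 CPM in WTFGFR3_UTX and 1328, 1287 and 1281 CPM in WTFGFR3_EV libraries. As for ERBB3, the S249C_EV libraries lay below the other 9, and the interaction was 0.48 ± 0.08 (edgeR adjusted p = 0.00888).

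MSN, the actin-linking protein moesin, had opposite effects that both passed. It averaged 69.05 ± 4.58 CPM in S249C_UTX and 56.1 ± 2.87 in S249C_EV, and 69.9 ± 2.96 in WTFGFR3_UTX and 86.3 ± 2.26 in WTFGFR3_EV libraries (SD, n = 3 each). The UTX effects were 0.30 and -0.30 (log2) and the interaction was 0.61 ± 0.08 (edgeR adjusted p = 0.00205). The UTX groups of MSN lay together between the EV groups.

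NGFR, the nerve growth factor receptor that marks basal urothelium, was the 1 basal call below 0 and was low throughout. That call was lost in 10 of the 12 fits that left out 1 library. It had 2.35, 2.19 and 2.07 CPM in S249C_UTX and 2.56, 2.34 and 2.72 CPM in S249C_EV, and 2.08, 1.40 and 1.79 CPM in WTFGFR3_UTX and 0.948, 0.879 and 0.552 CPM in WTFGFR3_EV libraries. The WTFGFR3_EV libraries were the lowest of the 12, and the interaction was -1.36 ± 0.28 (edgeR adjusted p = 0.0388). TRIM29 stood at 0.33 ± 0.07 (edgeR adjusted p = 0.0376). NGFR and TRIM29 were named after their values were seen.

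Of 19 squamous and cornified envelope genes tested, 2 passed, both above 0 (0.572% of all genes tested), and the median was 0.45. Only 1 passed with the replicate block and without any of 9 of the 12 libraries, the others being S249C_EV replicates 1 and 2 and S249C_UTX replicate 1. IVL (involucrin, a precursor of the cornified envelope) had 48.4, 51.6 and 51.1 CPM in S249C_UTX and 28.1, 28.9 and 27.6 CPM in S249C_EV libraries. It had 42.9, 40.1 and 44.2 CPM in WTFGFR3_UTX and 36.0, 33.5 and 36.8 CPM in WTFGFR3_EV libraries. No 2 groups overlapped, S249C_UTX was the highest and S249C_EV the lowest, and the interaction was 0.58 ± 0.08 (edgeR adjusted p = 0.00207), a call kept in all 12 fits that left out 1 library. S100A9, a calcium-binding protein of stressed epithelium, fell with UTX beside both forms. It averaged 22.6 ± 1.98 CPM in S249C_UTX and 39.1 ± 8.89 in S249C_EV, and 23.4 ± 0.44 in WTFGFR3_UTX and 70.4 ± 2.2 in WTFGFR3_EV libraries (SD, n = 3 each), with an interaction of 0.80 ± 0.17 (edgeR adjusted p = 0.0465).

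**Figure D4:**
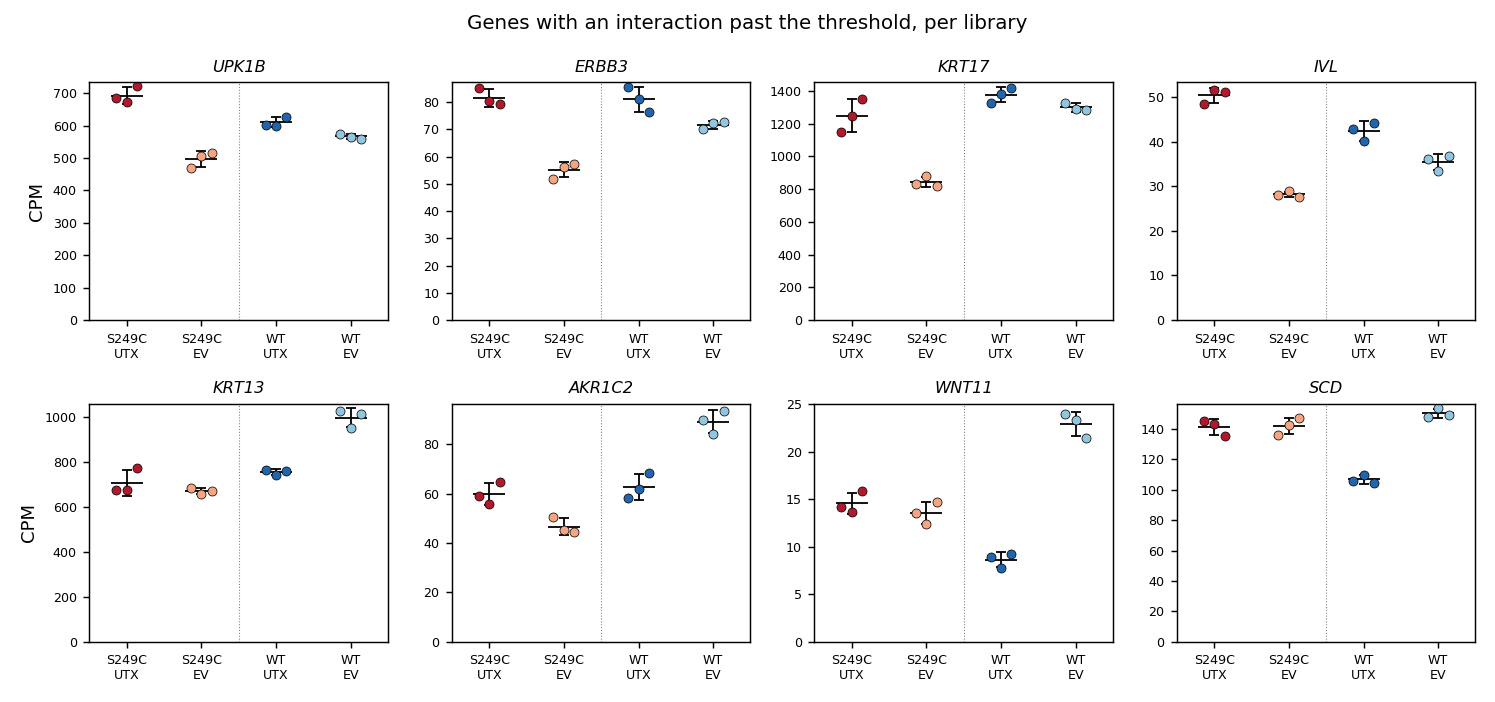
CPM of 8 genes on linear axes from 0, with 1 point per library and a bar with whiskers for the mean ± SD of 3 libraries. For UPK1B, ERBB3, KRT17 and IVL the S249C_EV libraries are the lowest, for KRT13, AKR1C2 and WNT11 the WTFGFR3_EV libraries are the highest, and for SCD the WTFGFR3_UTX libraries stand below the rest.

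Of 24 genes of the NRF2 antioxidant programme, 5 passed and all lay above 0, among them AKR1C1, AKR1C2, AKR1C3 and GPX2, against 0.572% of all genes tested, with a median of 0.11. Leaving out 1 library gave 2 to 5 calls, with 2 without WTFGFR3_UTX replicate 2, 3 without WTFGFR3_EV replicate 3, WTFGFR3_UTX replicate 1 or S249C_UTX replicate 2, and 4 or 5 otherwise. AKR1C2, an aldo-keto reductase of steroid metabolism, had 59.2, 55.7 and 64.7 CPM in S249C_UTX and 50.5, 45.2 and 44.5 CPM in S249C_EV libraries. It had 58.3, 61.8 and 68.3 CPM in WTFGFR3_UTX and 90.0, 84.2 and 93.4 CPM in WTFGFR3_EV libraries. The UTX groups overlapped between the EV groups, as for MSN. UTX raised AKR1C2 by 0.36 ± 0.07 beside S249C (edgeR adjusted p = 0.00221) and the effect beside wild type FGFR3 was -0.51 ± 0.07 (edgeR adjusted p = 0.000123), an interaction of 0.86 ± 0.10 (edgeR adjusted p = 0.000888).

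AKR1C1 averaged 12 ± 0.85 CPM in S249C_UTX and 6.62 ± 0.50 in S249C_EV, and 12.7 ± 0.13 in WTFGFR3_UTX and 12.6 ± 1.22 in WTFGFR3_EV libraries (SD, n = 3 each), so that the S249C_EV libraries stood apart from the rest. Its interaction was 0.84 ± 0.12 (edgeR adjusted p = 0.00523) and that of AKR1C3 was 0.91 ± 0.17 (edgeR adjusted p = 0.0284). The 3 AKR1C genes are near-identical neighbours between which reads can be split, so their values are uncertain as single genes and do not count as separate evidence. GPX2, a glutathione peroxidase of epithelia, stood at 0.58 ± 0.10 (edgeR adjusted p = 0.0151). GPX2 was named after its values were seen.

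Junction genes passed above 0 in 3 of 26 tested, against 0.572% of all genes, with a median of 0.15. Of the 26 values, 23 lay above 0. The count was 0 without WTFGFR3_EV replicate 2 or 3 or WTFGFR3_UTX replicate 2, 1 without WTFGFR3_UTX replicate 3 or S249C_UTX replicate 2, 5 without S249C_UTX replicate 3, and 2 without any other library or with the replicate block. JUP (plakoglobin, of desmosomes and adherens junctions) had 696, 716 and 742 CPM in S249C_UTX and 412, 450 and 425 CPM in S249C_EV libraries. It had 750, 728 and 700 CPM in WTFGFR3_UTX and 539, 561 and 569 CPM in WTFGFR3_EV libraries. UTX libraries were above EV libraries beside both forms, the UTX groups overlapped, and the interaction was 0.36 ± 0.07 (edgeR adjusted p = 0.0213). GJA5, a gap junction connexin, averaged 24.9 ± 0.60 CPM in S249C_UTX and 9.29 ± 1.62 in S249C_EV, and 24.0 ± 0.07 in WTFGFR3_UTX and 14.5 ± 0.49 in WTFGFR3_EV libraries (SD, n = 3 each), with an interaction of 0.70 ± 0.12 (edgeR adjusted p = 0.0179). OCLN, the tight junction protein occludin, named after its values were seen, stood at 0.34 ± 0.07 (edgeR adjusted p = 0.0440).

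Notch genes passed above 0 in 2 of 17 (0.572% of all genes), with a median of 0.03. HEY1, a transcriptional repressor that Notch induces, had 4.63, 3.86 and 4.70 CPM in S249C_UTX and 4.04, 3.69 and 3.40 CPM in S249C_EV libraries. It had 3.89, 3.49 and 3.94 CPM in WTFGFR3_UTX and 7.46, 6.34 and 7.61 CPM in WTFGFR3_EV libraries. The WTFGFR3_EV libraries stood above the other 9, and the interaction was 1.16 ± 0.17 (edgeR adjusted p = 0.00509). The receptor NOTCH3 averaged 129 ± 3.07 CPM in S249C_UTX and 106 ± 6.24 in S249C_EV, and 110 ± 13.5 in WTFGFR3_UTX and 139 ± 6.22 in WTFGFR3_EV libraries (SD, n = 3 each). Its UTX effects were 0.28 and -0.35, both past the threshold, with an interaction of 0.63 ± 0.10 (edgeR adjusted p = 0.00933).

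ERBB receptors and ligands passed above 0 in 2 of 14, ERBB3 and ERRFI1 (0.572% of all genes), with a median of 0.02. The count stayed at 2 only without S249C_EV replicate 2 or S249C_UTX replicate 3, and it was 1 with the replicate block or without WTFGFR3_UTX replicate 1 or S249C_EV replicate 3, and 0 without any of the other 8 libraries. ERRFI1, a feedback inhibitor of the ERBB receptors, averaged 60.9 ± 3.78 CPM in S249C_UTX and 48.5 ± 1.82 in S249C_EV, and 61.4 ± 2.43 in WTFGFR3_UTX and 62.9 ± 1.63 in WTFGFR3_EV libraries (SD, n = 3 each). The S249C_EV group again stood below the rest, with an interaction of 0.36 ± 0.08 (edgeR adjusted p = 0.0388).

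In fatty acid synthesis 1 of 15 genes passed (0.686% of all genes), and 2 without S249C_UTX replicate 3. SCD, the desaturase that makes monounsaturated fatty acids, had 146, 143 and 136 CPM in S249C_UTX and 136, 142 and 147 CPM in S249C_EV libraries. It had 106, 110 and 105 CPM in WTFGFR3_UTX and 148, 154 and 149 CPM in WTFGFR3_EV libraries. Here one UTX group stood apart: UTX lowered SCD beside wild type FGFR3 (-0.49 ± 0.04, edgeR adjusted p = 2.01e-06), the effect beside S249C was 0.00 ± 0.04 (edgeR adjusted p = 0.955), and the interaction was 0.49 ± 0.06 (edgeR adjusted p = 0.00169).

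Mesenchymal genes passed above 0 in 2 of 13 (0.572% of all genes), and in 1 with the replicate block or without any library other than S249C_EV replicate 2 or S249C_UTX replicate 3. SPARC, a matrix glycoprotein, had 7.60, 7.80 and 6.74 CPM in S249C_UTX and 2.595, 2.657 and 2.99 CPM in S249C_EV, and 4.41, 3.49 and 3.90 CPM in WTFGFR3_UTX and 3.97, 3.21 and 3.23 CPM in WTFGFR3_EV libraries. S249C_UTX stood above all other libraries, and the interaction was 1.24 ± 0.18 (edgeR adjusted p = 0.00485). CDH2, N-cadherin, averaged 13.6 ± 0.44 CPM in S249C_UTX, 13.7 ± 1.15 in S249C_EV, 19.1 ± 0.89 in WTFGFR3_UTX and 26.6 ± 1.00 in WTFGFR3_EV libraries (SD, n = 3 each), with an interaction of 0.47 ± 0.10 (edgeR adjusted p = 0.0388). Of 22 cytokines and other NF-kB targets, 1 passed, above 0 (0.572% of all genes), while the median was -0.06. None passed with the replicate block or without any of 10 libraries, 1 passed above 0 without S249C_EV replicate 3, and 1 passed below 0 without S249C_UTX replicate 3. IL1RN, the interleukin-1 receptor antagonist, averaged 4.35 ± 0.31 CPM in S249C_UTX and 0.757 ± 0.13 in S249C_EV, and 4.37 ± 0.16 in WTFGFR3_UTX and 1.52 ± 0.05 in WTFGFR3_EV libraries (SD, n = 3 each), with an interaction of 1.00 ± 0.21 (edgeR adjusted p = 0.0388).

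Of 35 FGFR and MAPK feedback and target genes tested, 0 passed the interaction test by edgeR, a share close to the 0.686% of all genes that passed. An unadjusted p under 0.05 was found for 11 of the 35 (7 above 0 and 4 below), against 10.8% of all genes tested, and DESeq2 called 1 and limma voom 0. Between the forms of FGFR3, 11 of the 35 were higher and 1 lower in S249C_UTX than in WTFGFR3_UTX, against 1.71% and 1.34% of all genes. In S249C_EV 14 were higher and 2 lower than in WTFGFR3_EV, against 4.31% and 6.45%. SPRY4, a feedback inhibitor of the MAPK pathway, had 17.4, 16.5 and 15.2 CPM in S249C_UTX and 20.2, 20.6 and 21.3 CPM in S249C_EV libraries. It had 8.48, 8.76 and 8.34 CPM in WTFGFR3_UTX and 11, 13.1 and 11.9 CPM in WTFGFR3_EV libraries. UTX lowered SPRY4 beside both forms and the S249C libraries stood above the wild type libraries in both backgrounds, while the interaction was 0.16 ± 0.11 (edgeR adjusted p = 0.630).

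DUSP6, a phosphatase that dampens ERK, averaged 72.6 ± 3.71 CPM in S249C_UTX and 68.2 ± 1.56 in S249C_EV, and 59.5 ± 1.21 in WTFGFR3_UTX and 57.1 ± 1.29 in WTFGFR3_EV libraries (SD, n = 3 each), with an interaction of 0.03 ± 0.06 (edgeR adjusted p = 0.908). ETV4, an ETS factor downstream of FGF signalling, lay just outside the threshold at 0.47 ± 0.10 (edgeR adjusted p = 0.0561), and CCND1, the cyclin D1 gene, stood at -0.05 ± 0.06 (edgeR adjusted p = 0.809). These 4 genes were named after their values were seen. Among 22 mitosis and 24 DNA replication genes edgeR called 0 (0.686% of all genes), DESeq2 0 and limma voom 0. An unadjusted p under 0.05 was found for 1 and 4 of them, against 10.8% of all genes tested. UTX lowered 7 and 13 of them beside S249C (8.62% of all genes tested) and 1 and 18 beside wild type FGFR3 (6.01%). Among 33 interferon-stimulated genes the 3 tools also called 0, with 3 unadjusted p under 0.05. In the lists of FGF receptors and ligands, AP-1 factors, antigen presentation, cholesterol synthesis, PPAR targets, glycolysis with hypoxia, targets of YAP or TGF-beta, amino acid and ER stress genes, retinoid genes, the KMT2C/KMT2D complex, PRC2 and H3K27 enzymes, HOX genes and ribosomal proteins, edgeR and limma voom called 0 and DESeq2 1, a hypoxia and glycolysis gene. Their medians ran between -0.18 (antigen presentation) and 0.15 (FGF receptors and ligands). Each list, of 9 to 30 genes tested, held between 1 and 6 genes with an unadjusted p under 0.05, against 10.8% of all genes. Of 25 cholesterol synthesis genes, 6 had such a p, all above 0, and 22 of the 25 values lay above 0.

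**Figure D5:**
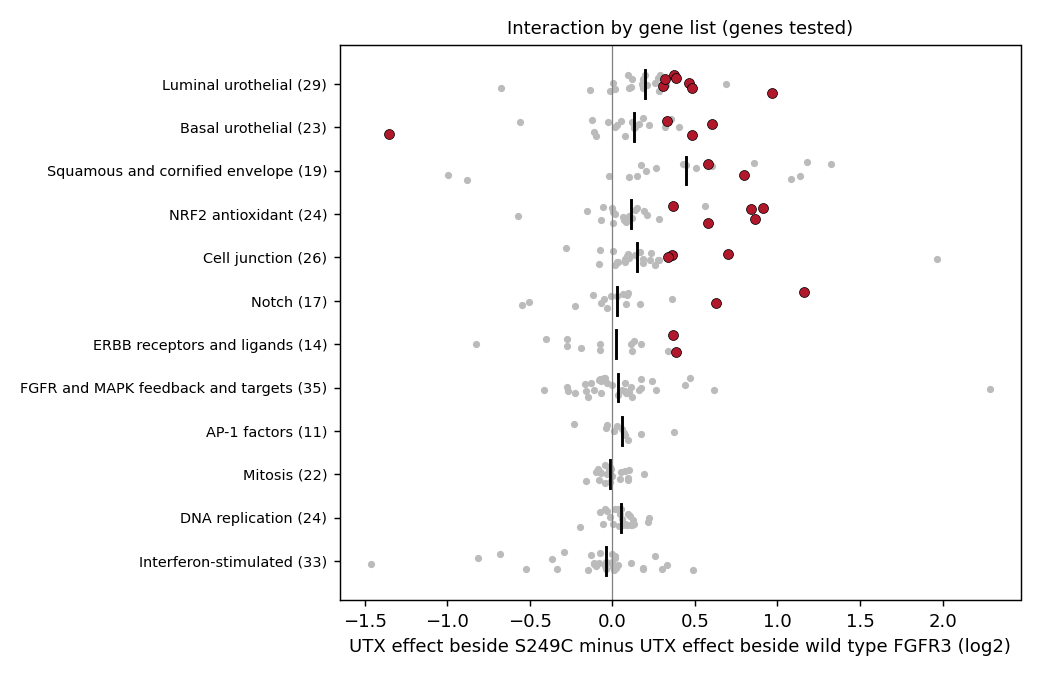
Interaction (log2, horizontal axis) of each gene tested in 12 gene lists, with the number tested in parentheses, red for adjusted p under 0.05 and a vertical bar for the list's median. All 29 values of the luminal list but 3 lie above 0. So do 23 of 26 junction, 17 of 23 basal and 16 of 19 squamous values. Above 0 lie 7 of 22 mitosis and 13 of 33 interferon-stimulated values. The FGFR and MAPK targets, with 0 calls, centre on 0.03.

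Among genes of at least 5 CPM the largest positive interactions were in PDE6A and WNT11, and in neither did the UTX effect beside S249C pass. PDE6A, a subunit of the rod photoreceptor phosphodiesterase, had 5.14, 3.35 and 4.60 CPM in S249C_UTX and 6.33, 4.24 and 3.74 CPM in S249C_EV, and 5.28, 4.05 and 4.13 CPM in WTFGFR3_UTX and 16.4, 14.7 and 14.2 CPM in WTFGFR3_EV libraries. WTFGFR3_EV alone was high and the other 3 groups overlapped. The interaction was 1.62 ± 0.26 (edgeR adjusted p = 0.00888). Its promoter, on the minus strand at GRCh38.p14 chr5:149944744-149945043, is given as that of the largest interaction among the named genes of at least 5 CPM, with the 50 bases from the start on in capitals.
PDE6A: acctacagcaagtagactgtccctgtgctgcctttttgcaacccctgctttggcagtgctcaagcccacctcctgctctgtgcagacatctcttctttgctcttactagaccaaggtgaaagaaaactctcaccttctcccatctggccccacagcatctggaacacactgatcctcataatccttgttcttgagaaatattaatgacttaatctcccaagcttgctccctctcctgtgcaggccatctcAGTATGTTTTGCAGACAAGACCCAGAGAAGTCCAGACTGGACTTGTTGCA

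WNT11, a secreted Wnt ligand, had 14.2, 13.7 and 15.8 CPM in S249C_UTX and 13.5, 12.4 and 14.7 CPM in S249C_EV libraries. It had 8.95, 7.73 and 9.28 CPM in WTFGFR3_UTX and 23.9, 23.3 and 21.5 CPM in WTFGFR3_EV libraries. The S249C groups overlapped with each other and lay between the wild type groups. The UTX effect was 0.10 ± 0.09 beside S249C (edgeR adjusted p = 0.442) and -1.40 ± 0.09 beside wild type FGFR3 (edgeR adjusted p = 5.46e-08), and the interaction of 1.5 ± 0.12 had an adjusted p of 9.13e-05 and at most 0.000716 with any library left out. ADAMTS12, a secreted metalloprotease, likewise had a UTX effect that passed beside wild type FGFR3 and not beside S249C, with 10.5 ± 1.72 CPM in S249C_UTX and 9.86 ± 0.75 in S249C_EV, and 4.13 ± 0.45 in WTFGFR3_UTX and 7.99 ± 0.59 in WTFGFR3_EV libraries (SD, n = 3 each), and an interaction of 1.04 ± 0.18 (edgeR adjusted p = 0.0130).

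In other genes with large positive values UTX acted mainly or more strongly beside S249C. OSBP2, an oxysterol-binding protein, had 8.89, 9.44 and 8.73 CPM in S249C_UTX and 3.62, 3.21 and 3.86 CPM in S249C_EV, and 4.24, 5.36 and 4.25 CPM in WTFGFR3_UTX and 3.36, 3.78 and 3.0 CPM in WTFGFR3_EV libraries. The S249C_UTX libraries of OSBP2 stood above the other 9, and the interaction was 0.89 ± 0.18 (edgeR adjusted p = 0.0329). ANKRD22 had 11.3 ± 0.34 CPM in S249C_UTX and 1.91 ± 0.14 in S249C_EV, and 7.68 ± 0.37 in WTFGFR3_UTX and 2.55 ± 0.29 in WTFGFR3_EV libraries (SD, n = 3 each), with an interaction of 0.98 ± 0.15 (edgeR adjusted p = 0.00799).

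IGFBP2, a carrier of insulin-like growth factors, averaged 52.2 ± 7.21 CPM in S249C_UTX and 2.34 ± 0.41 in S249C_EV, and 63.8 ± 3.78 in WTFGFR3_UTX and 5.47 ± 0.49 in WTFGFR3_EV libraries (SD, n = 3 each). UTX raised it by 4.48 ± 0.13 beside S249C and by 3.54 ± 0.11 beside wild type FGFR3 (log2), an interaction of 0.94 ± 0.19 (edgeR adjusted p = 0.0355). That direction depends on the scale: the difference of differences in mean CPM was -8.46 for IGFBP2, whereas 130 of the 133 genes had the same sign on both scales.

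SLITRK6, a transmembrane protein of neurons that bladder tumours also make, and MMRN2, an extracellular matrix protein, had opposite UTX effects that both passed. SLITRK6 had 9.29, 9.80 and 8.09 CPM in S249C_UTX and 5.69, 5.91 and 6.88 CPM in S249C_EV, and 8.48, 8.90 and 9.24 CPM in WTFGFR3_UTX and 11.8, 12 and 11.4 CPM in WTFGFR3_EV libraries, with an interaction of 0.96 ± 0.13 (edgeR adjusted p = 0.00343). MMRN2 averaged 33.4 ± 0.97 CPM in S249C_UTX and 29.7 ± 2.42 in S249C_EV, and 28.4 ± 0.31 in WTFGFR3_UTX and 45.2 ± 0.54 in WTFGFR3_EV libraries (SD, n = 3 each), with an interaction of 0.84 ± 0.08 (edgeR adjusted p = 0.000193). In both genes UTX libraries lay above EV libraries beside S249C and below them beside wild type FGFR3.

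Of the 22 genes with an interaction below 0, 9 met the conditions for naming (a mean of at least 5 CPM, at least 30 counts in every group and a symbol), against 74 above 0. TUT1, a terminal uridylyltransferase that acts on U6 RNA, had 29.6, 32.6 and 24.8 CPM in S249C_UTX and 46.9, 49.5 and 41.5 CPM in S249C_EV libraries. It had 31.7, 29.2 and 32 CPM in WTFGFR3_UTX and 27.7, 18 and 23.7 CPM in WTFGFR3_EV libraries. S249C_EV stood above all other libraries, and UTX lowered TUT1 beside S249C (-0.67 ± 0.12, edgeR adjusted p = 0.000992) and raised it beside wild type FGFR3 (0.42 ± 0.13, edgeR adjusted p = 0.0358), an interaction of -1.09 ± 0.18 (edgeR adjusted p = 0.00922). The symbol TUT1 belongs to 2 gene IDs, so reads may be split between them. The values above are those of ENSG00000255508.7 alone, and those of the other ID are not given here. They are therefore uncertain as values of the TUT1 gene. The promoter was found by symbol and may not be that of this ID. It lies on the minus strand at GRCh38.p14 chr11:62591474-62591773. It is shown as that of the lowest interaction among the named genes of at least 5 CPM, with capitals as above.
TUT1: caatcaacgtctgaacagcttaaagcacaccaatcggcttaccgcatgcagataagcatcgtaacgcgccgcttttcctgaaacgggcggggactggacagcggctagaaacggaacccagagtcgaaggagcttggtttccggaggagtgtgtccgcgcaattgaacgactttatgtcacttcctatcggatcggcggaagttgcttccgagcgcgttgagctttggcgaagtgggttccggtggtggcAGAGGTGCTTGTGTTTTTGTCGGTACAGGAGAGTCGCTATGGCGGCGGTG

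In ADAMTS6 and ADAMTS1 UTX lowered the level past the threshold beside S249C and not beside wild type FGFR3, and in FAM20C and APLN beside both. ADAMTS6, a secreted metalloprotease, had 4.08, 3.86 and 3.42 CPM in S249C_UTX and 6.83, 7.38 and 7.97 CPM in S249C_EV, and 5.23, 6.15 and 4.795 CPM in WTFGFR3_UTX and 5.65, 5.89 and 5.48 CPM in WTFGFR3_EV libraries, with an interaction of -0.89 ± 0.16 (edgeR adjusted p = 0.0197). Its relative ADAMTS1 averaged 33.5 ± 0.22 CPM in S249C_UTX and 48.1 ± 1.5 in S249C_EV, and 41.5 ± 1.53 in WTFGFR3_UTX and 44.7 ± 2.16 in WTFGFR3_EV libraries (SD, n = 3 each), with an interaction of -0.41 ± 0.07 (edgeR adjusted p = 0.0149). FAM20C, a kinase of secreted proteins, stood at -0.65 ± 0.12 (edgeR adjusted p = 0.0197) and APLN, the peptide ligand apelin, at -0.63 ± 0.13 (edgeR adjusted p = 0.0402). The UTX effect on FAM20C was -1.08 beside S249C and -0.43 beside wild type FGFR3 (log2; edgeR adjusted p = 3.43e-07 and 0.00216), and on APLN it was -1.17 and -0.54 (edgeR adjusted p = 4.98e-07 and 0.000682). In ADAMTS6, ADAMTS1, FAM20C and APLN the S249C_UTX libraries were the lowest of the 12. The APLN call was lost in 11 of the 12 fits that left out 1 library.

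KDM1B, a histone H3 lysine 4 demethylase, averaged 21.4 ± 2.88 CPM in S249C_UTX and 29.3 ± 0.33 in S249C_EV, and 21.8 ± 1.75 in WTFGFR3_UTX and 19.6 ± 1.32 in WTFGFR3_EV libraries (SD, n = 3 each), with an interaction of -0.60 ± 0.12 (edgeR adjusted p = 0.0388). FAM83A, a MAPK-associated adaptor, rose with UTX beside both forms, to 104 ± 4.58 CPM in S249C_UTX against 54.1 ± 2.14 in S249C_EV and to 104 ± 4.01 in WTFGFR3_UTX against 40.7 ± 1.87 in WTFGFR3_EV libraries (SD, n = 3 each), with an interaction of -0.40 ± 0.07 (edgeR adjusted p = 0.0213). ARHGAP11B stood at -0.40 ± 0.08 (edgeR adjusted p = 0.0348) and RPL36AP37 at -0.86 ± 0.15 (edgeR adjusted p = 0.0150). ARHGAP11B is a near copy of ARHGAP11A, and its symbol belongs to 2 gene IDs, of which 1 is given here. RPL36AP37 is a ribosomal protein pseudogene, so ARHGAP11B and RPL36AP37 are both uncertain as single genes.

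Of the 45 genes with an interaction of at least 1 in size, 34 lay above 0 (0.175% of genes tested) and 11 below (0.0567%), and 31 and 10 of these had a mean under 5 CPM. In 19 of the 34 the WTFGFR3_EV libraries were the highest of the 12. ABCA4, a retinoid transporter of photoreceptors, summed over 3 libraries to 11 counts in S249C_UTX, 22 in S249C_EV and 17 in WTFGFR3_UTX, against 1206 counts, or 14.6, 17.5 and 16.1 CPM, in WTFGFR3_EV. The ABCA4 interaction was 4.97 ± 0.52 (edgeR adjusted p = 0.000465). CALML3 (a calmodulin-like protein of epithelia) and MAP2 (a microtubule protein of neurons), named after their values were seen, were also highest in WTFGFR3_EV. CALML3 averaged 1.73 ± 0.20 CPM in S249C_UTX, 1.07 ± 0.22 in S249C_EV, 1.14 ± 0.27 in WTFGFR3_UTX and 5.59 ± 0.31 in WTFGFR3_EV libraries (SD, n = 3 each), with an interaction of 2.97 ± 0.27 (edgeR adjusted p = 0.000143). MAP2 averaged 1.6 ± 0.15 CPM in S249C_UTX, 1.76 ± 0.26 in S249C_EV, 1.22 ± 0.27 in WTFGFR3_UTX and 6.98 ± 0.86 in WTFGFR3_EV libraries (SD, n = 3 each), with an interaction of 2.37 ± 0.25 (edgeR adjusted p = 0.000483).

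FBN1, the matrix protein fibrillin-1, had 2.83, 2.73 and 2.07 CPM in S249C_UTX and 0.191, 0.0793 and 0.151 CPM in S249C_EV (11 counts in all), and 2.81, 2.61 and 2.46 CPM in WTFGFR3_UTX and 0.819, 0.956 and 0.749 CPM in WTFGFR3_EV libraries, with an interaction of 2.49 ± 0.37 (edgeR adjusted p = 0.00511). TRHDE-AS1, an antisense RNA whose reads cannot be told from those of its partner unless counting used strand, had 3.97, 3.86 and 2.82 CPM in S249C_UTX, 1.11, 1.39 and 1.44 CPM in S249C_EV, 0.389, 0.280 and 0.351 CPM in WTFGFR3_UTX and 0.690, 0.535 and 0.591 CPM in WTFGFR3_EV libraries, with an interaction of 2.25 ± 0.34 (edgeR adjusted p = 0.00632). ENSG00000267601.1, which the files leave unnamed, had 343 counts in S249C_UTX and 0 in S249C_EV, and 257 in WTFGFR3_UTX and 118 in WTFGFR3_EV, and its fitted value of 8.51 depends on the prior count and is no measure of size.

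Among the genes named, the interaction of PDE6A, WNT11, ADAMTS12, ANKRD22, SLITRK6, MMRN2, AKR1C1, AKR1C2, TUT1, KRT13, KRT17, MSN, IVL, SPARC, SCD, HEY1, NOTCH3, ABCA4, FBN1, TRHDE-AS1, CALML3, MAP2 and ENSG00000267601.1 passed in all 12 fits that left out 1 library. The other genes named that had passed lost their call in between 1 of these fits (GPX2) and 11 (APLN, IL1RN and OCLN), without a change of sign.

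The WTFGFR3_EV libraries, which are the highest for many of these genes, also had the highest summed levels of 3 marker lists. Of 10 fibroblast markers 5 were in the table, and they summed to 22.1 to 23.7 CPM in S249C_UTX, 25.2 to 28.9 in S249C_EV, 23.3 to 26.8 in WTFGFR3_UTX and 30.9 to 32.4 in WTFGFR3_EV libraries. Of 12 leukocyte, endothelial and red cell markers 7 were in the table, and they summed to 11.7 to 14.2 CPM in S249C_UTX, 9.72 to 12.4 in S249C_EV, 12.8 to 13.9 in WTFGFR3_UTX and 17.9 to 19.9 in WTFGFR3_EV libraries. All 12 urothelial and epithelial identity genes were present, at 7325 to 7877 CPM in S249C_UTX, 7016 to 7279 in S249C_EV, 7285 to 7575 in WTFGFR3_UTX and 7918 to 8281 in WTFGFR3_EV libraries. Such a sum follows its most abundant genes, and single members differed. Of these 12 genes, 3 were higher and 6 lower in S249C_EV than in WTFGFR3_EV past the threshold, against 4.31% and 6.45% of all genes tested. Of the fibroblast and the leukocyte, endothelial and red cell markers edgeR called 0 for the interaction, with 0 and 3 unadjusted p under 0.05 and medians of 0.36 and 0.37. DESeq2 called 0 and 1 of them, the 1 above 0, and limma voom called 0. Without S249C_EV replicate 3 edgeR called 1 of the leukocyte, endothelial and red cell markers, above 0. No marker in the table was at 0 over a whole group, and the part of these levels in the interactions was not tested.

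The first experiment of the series, whose labels name no FGFR3 vector, gave a measure of the UTX effect from other samples. Of its 18 libraries, 12 carried wild type UTX or EV in a pSIN-puro vector in full or sphere medium, 3 in each group, and these entered the comparisons below. The other 6 carried UTX with the HEAA mutations and entered the fit only through the shared estimate of spread. Of the 106 positive interaction genes tested there, 43 were higher (40.6%) and 45 lower (42.5%) in UTX than in EV cells in full medium, against 28.4% and 29.2% of all genes tested there. For the difference of the UTX effect between sphere medium, which holds FGF2 and EGF, and full medium, 37 passed above 0 (34.9%) and 28 below (26.4%), against 21.1% and 16.2%. Levels were not matched in these shares. Of the 19 negative genes tested, 3 were higher (15.8%) and 5 lower (26.3%) with UTX in full medium, against the same 28.4% and 29.2%. For the difference between media, 3 passed above 0 and 3 below (15.8% each), against 21.1% and 16.2%. UPK1B averaged 738 CPM in UTX and 530 CPM in EV cells of full medium, a UTX effect of 0.48 ± 0.04 (log2, SE). ERBB3 averaged 134 CPM in UTX and 131 CPM in EV cells there, an effect of 0.03 ± 0.04 that did not pass (edgeR adjusted p = 0.513). IVL averaged 63.6 CPM in UTX and 85.8 CPM in EV cells, an effect of -0.43 ± 0.06.

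Promoters were scanned for the AP-1 motif TGANTCA, the ETS motif CCGGAAG and the grainyhead motif AACCNGTT on both strands, in RefSeq windows of GRCh38.p14 that run between 250 bases before and 50 bases after the start. Of the 111 positive genes 82 had a window, with 131 windows in all, and of the 16585 symbols among all genes tested 12193 had one, with 17406. The AP-1 motif was in 9.16% of the positive genes' windows and 5.69% of all, the grainyhead motif in 4.58% and 1.51%, and the ETS motif in 4.58% and 15.7%. For windows of the 23 genes with an interaction of at least 1 the shares were 9.68%, 3.23% and 3.23%. Of the 10 windows of the negative genes, 0 held the AP-1 motif, 0 the grainyhead motif and 1 (10.0%) the ETS motif. The 3 promoters printed above held none of the motifs, and windows for ERBB3 and WNT11 were not used here. A match is a description and not a site.

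The 6 grainyhead matches are printed with their flanks because the motif belongs to the factor family of GRHL3, and 7 of the AP-1 matches because they belong to genes described above; capitals mark the match, given on the strand of the gene. The first 6 are at chr1:151511350-151511377, chr2:113117721-113117742, chr12:50202397-50202423, chr3:12301835-12301862, chr1:153357645-153357672 and chr15:43267007-43267034, and the last 7 at chr1:152908413-152908439, chr2:113117738-113117764, chr13:85799423-85799449, chr10:88851886-88851912, chr22:30764027-30764053, chr5:33892058-33892084 and chr18:28036727-28036753. CGN (cingulin, of tight junctions), LIMA1 (an actin-binding protein) and TGM5 (an epidermal transglutaminase) were named after their matches were seen.
CGN, grainyhead, plus strand: gcagcggagtAACAGGTTggtgggaggg
IL1RN, grainyhead, plus strand: taagAACCAGTTtggtttctgc
LIMA1, grainyhead, minus strand: atgtggggaAACCTGTTgagtaacttt
PPARG, grainyhead, plus strand: aaagaactgaAACAGGTTtgaggctttc
S100A9, grainyhead, plus strand: cttcctcccaAACCAGTTtcaggccagg
TGM5, grainyhead, minus strand: caagtgagcaAACCAGTTgtgatctgct
IVL, AP-1, plus strand: atgcctgtggTGAGTCAggaaggggtt
IL1RN, AP-1, plus strand: tctgctagccTGAGTCAccctcctgga
SLITRK6, AP-1, minus strand: gcttaaaggcTGAGTCAaaagccaaga
ANKRD22, AP-1, minus strand: agagcaaataTGACTCAgaaaccggct
OSBP2, AP-1, plus strand: tccgtacctgTGAGTCAttttctgatg
ADAMTS12, AP-1, minus strand: cactgtcagcTGAATCActcccctttt
CDH2, AP-1, minus strand: aagggatcagTGAATCAgatgtaataa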

How the data were processed

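RNA was sequenced from NEBNext Ultra II libraries of RNA purified with a Qiagen RNeasy kit, per the labels. The deposited tables hold expected counts per gene, estimated by the authors with Salmon 0.8 against hg19/GRCh37, and DESeq2 is also listed, per the submitters' processing notes; the step that summed transcripts to genes is not given in the sources. The counts in the tables are whole numbers, so rounding changed none. The table of the experiment with FGFR3 vectors had 20073 genes, and that of the first experiment 58288. Names came from the files for 15696 IDs and from a reference table for 1402, and 2975 IDs had none.

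From these counts, filterByExpr by group kept 19399 genes (19629 in the first experiment), and edgeR 4.0.16 in R 4.3.3 fitted 1 mean per group over the 12 libraries with TMM factors and the quasi-likelihood test, with Benjamini-Hochberg adjustment over all genes tested and a threshold of 0.05. SEs are the log2 value divided by the square root of F. The script was tested on simulated data. Alternatives were DESeq2 1.42.0, limma 3.58.1 voom, DESeq2 size factors, no filter, a replicate block, each library left out, and a CPM scale. Replicates of a group correlated at r between 0.9868 and 0.9905 (log CPM), and libraries of different groups at 0.9761 to 0.9883.

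The genes named were KDM6A, FGFR3, UPK1B and ERBB3; the 10 largest interactions in each direction among called genes with a mean of at least 5 CPM, 30 counts in every group, a symbol and 1 sign in all 12 fits without 1 library; the 5 largest with opposite UTX effects; up to 2 per gene list; and up to 4 with a group under 30 counts. Genes outside this rule are marked in the text. Members and lists were chosen with earlier results of these data known.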

Additional observations from a re-analysis of the deposited data

Results flagged for a closer look

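Each gene below had a UTX effect beside S249C that differed from its UTX effect beside wild type FGFR3 by the test of that difference itself, as reported above. The values are the first effect minus the second (log2).

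Among luminal, basal and squamous genes these were UPK1B at 0.37, ERBB3 at 0.39, KRT13 at 0.48, PPARG at 0.30, ELF3 at 0.47, GRHL3 at 0.96, CD24 at 0.32, KRT17 at 0.48, TRIM29 at 0.33, MSN at 0.61, NGFR at -1.36, IVL at 0.58 and S100A9 at 0.80. Among antioxidant and junction genes they were AKR1C1 at 0.84, AKR1C2 at 0.86, AKR1C3 at 0.91, GPX2 at 0.58, GJA5 at 0.70, JUP at 0.36 and OCLN at 0.34. Among signalling, lipid, matrix and cytokine genes they were ERRFI1 at 0.36, HEY1 at 1.16, NOTCH3 at 0.63, SCD at 0.49, SPARC at 1.24, CDH2 at 0.47 and IL1RN at 1.00.

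Of the genes named for size, those above 0 were PDE6A at 1.62, WNT11 at 1.5, ADAMTS12 at 1.04, ANKRD22 at 0.98, SLITRK6 at 0.96, IGFBP2 at 0.94, OSBP2 at 0.89 and MMRN2 at 0.84. Those below 0 were TUT1 at -1.09, ADAMTS6 at -0.89, RPL36AP37 at -0.86, FAM20C at -0.65, APLN at -0.63, KDM1B at -0.60, ADAMTS1 at -0.41, ARHGAP11B at -0.40 and FAM83A at -0.40. Genes with a group under 30 counts were ABCA4 at 4.97, TRHDE-AS1 at 2.25, FBN1 at 2.49 and ENSG00000267601.1. The fitted value of 8.51 for ENSG00000267601.1 depends on the prior count and is no measure of size. CALML3 and MAP2, which follow, had no group under 30 counts. CALML3 at 2.97 and MAP2 at 2.37 had a mean under 5 CPM.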

How the results depend on the processing

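Against 133 genes with an interaction, the count was 135 with DESeq2 size factors, 198 with the DESeq2 Wald test (122 of the 133 among them), 129 without a filter, 154 with limma voom, and 45 when a size of at least 1 was also asked. Leaving out 1 library gave between 58 and 248 calls, of which 53 and 127 were among the 133, and 77.8% to 87.9% of the calls lay above 0 in these settings, except for 75.6% of the 45. S249C against wild type FGFR3 called 591 genes with UTX and 291 to 706 with a library left out (lowest without WTFGFR3_UTX replicate 2), and 2088 with EV and 1124 to 2873 (lowest without WTFGFR3_EV replicate 3, highest without S249C_UTX replicate 3). On the scale of mean CPM, 3 of the 133 genes changed sign, among them IGFBP2 at -8.46, and so did SPRY4 at -0.81, which was not called. The cause was not tested. Without S249C_UTX replicate 3, whose KDM6A was the lowest of its group, 7 luminal, 4 basal, 5 junction and 5 NRF2 genes lay above 0 past the threshold, an alternative chosen after seeing the data; the lowest counts of calls with another library left out were 1, 2, 0 and 2.

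Deviations from the group means of libraries with the same replicate number correlated between -0.086 and 0.156, over 0.1 in 1 of 18 pairs. That pair was replicate 3 of WTFGFR3_UTX and of S249C_UTX. With WTFGFR3_UTX replicates 1 and 2, S249C_UTX replicate 3 correlated at -0.099 and -0.054. Whether the UTX groups were paired by replicate number was not tested. With the number as a replicate block 80 genes passed, 77 of them among the 133; the ERBB3 adjusted p was then 0.0627. Precision is limited by 3 libraries a group and, for genes under 5 CPM, by counting error.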
